A study of Mus musculus with 12 samples.

Results

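The brown and beige fat genes examined here are Ucp1, Dio2, Cidea, Cox7a1, Cox8b, Tmem26, Tbx1, Otop1, Prdm16 and Ppargc1a, which are 10 of the 54532 mouse genes in the count table and were taken from the table by symbol. They were read in 12 libraries from male mice, 3 from subcutaneous fat and 3 from liver for each of 2 vectors. All mice received an adeno-associated virus of serotype 8 (AAV8) with the thyroxine-binding globulin promoter (TBGp), which is active in hepatocytes, by tail vein at 10 weeks of age, were then kept on a low-fat diet, and were killed 16 weeks after injection. The null mice received the empty vector, and the hHKDC1 OE mice received the same vector carrying full-length human HKDC1, a hexokinase. The treatment and title labels place all 3 hHKDC1 OE libraries of each tissue with overexpression, whereas the description of replicates 2 and 3 calls them HKDC1-knockout, and all were read here as hHKDC1 OE. The transgene is human and the rows are mouse genes, so the table offers no check of these labels, and mouse Hkdc1 had between 0 and 8 counts in every library.

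Brown and beige adipocytes burn fuel to make heat, and white adipocytes store it. In the cold, noradrenaline raises cyclic AMP in these cells, which drives transcription of Ucp1 and of Ppargc1a, and the protein made from Ucp1 lets protons leak back across the inner mitochondrial membrane. Beige cells appear within subcutaneous white fat, and skeletal muscle, which often lies against this fat, uses some of the same mitochondrial isoforms, among them Cox7a1 and Cox8b.

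The control regions of the members that the results below turn on are shown first, because cyclic AMP reaches Ucp1, Dio2 and Ppargc1a through short promoter motifs and because Cox7a1 and Cox8b are shared with muscle. RefSeq gave a promoter for 9 of the 10 members, in 10 windows of 32851 in all, on GRCm38.p6. Each line gives the 250 bases before the transcription start, 5′ to 3′ on the strand of the gene, with the motifs found in capitals. The windows are Ucp1 at chr8:83290098-83290347 on the plus strand, Dio2 at chr12:90739039-90739288 on the minus strand, Ppargc1a at chr5:51567726-51567975 on the minus strand, Cox8b at chr7:140900447-140900696 on the minus strand and Cox7a1 at chr7:30183921-30184170 on the plus strand. For other members, the count table places Tmem26 at chr10:68723646-68782650, Tbx1 at chr16:18580979-18590671, Otop1 at chr5:38275972-38304217 and Prdm16 at chr4:154316125-154636873, all protein-coding genes in GRCm38 coordinates.
Ucp1: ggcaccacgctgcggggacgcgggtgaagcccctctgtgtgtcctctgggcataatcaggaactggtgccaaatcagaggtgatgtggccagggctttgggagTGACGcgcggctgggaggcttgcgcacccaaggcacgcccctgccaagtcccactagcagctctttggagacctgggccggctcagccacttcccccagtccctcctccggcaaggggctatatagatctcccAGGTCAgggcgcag
Dio2: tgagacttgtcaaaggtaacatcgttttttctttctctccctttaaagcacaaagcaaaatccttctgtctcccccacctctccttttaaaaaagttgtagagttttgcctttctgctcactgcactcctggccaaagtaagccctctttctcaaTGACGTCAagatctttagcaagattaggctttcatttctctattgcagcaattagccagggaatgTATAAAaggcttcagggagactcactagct
Ppargc1a: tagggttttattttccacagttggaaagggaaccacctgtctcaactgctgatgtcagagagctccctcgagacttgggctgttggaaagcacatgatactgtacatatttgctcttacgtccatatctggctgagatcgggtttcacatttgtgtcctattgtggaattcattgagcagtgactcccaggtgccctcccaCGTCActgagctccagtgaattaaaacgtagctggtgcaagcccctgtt
Cox8b: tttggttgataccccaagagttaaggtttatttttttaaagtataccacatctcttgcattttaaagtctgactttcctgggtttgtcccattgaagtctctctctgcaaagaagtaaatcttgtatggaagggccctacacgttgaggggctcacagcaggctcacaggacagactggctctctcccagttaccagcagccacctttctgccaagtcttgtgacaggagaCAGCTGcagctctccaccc
Cox7a1: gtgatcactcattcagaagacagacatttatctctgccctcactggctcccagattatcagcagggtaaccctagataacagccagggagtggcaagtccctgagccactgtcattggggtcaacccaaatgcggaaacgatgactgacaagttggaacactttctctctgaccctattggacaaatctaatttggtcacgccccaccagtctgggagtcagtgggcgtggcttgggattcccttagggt

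Both strands were searched for 8 motifs. The cyclic AMP response element TGACGTCA stood in Dio2 at 95 to 88 bases before the start, and 1.55% of all promoter windows held it. Its 5-base part TGACG, which the full element contains, stood in Ucp1 at 147 to 143, in Ppargc1a on the opposite strand at 49 to 45 and in Tbx1 at 14 to 10 bases before the start, and 17.8% of all windows held it. The nuclear receptor letters AGGTCA stood in Ucp1 at 14 to 9 bases before the start, with a share of 14.0% of all windows. A CAGCTG E-box, the letters bound by the muscle factor MyoD, stood in Cox8b at 19 to 14 bases before the start, with a share of 13.0%, and the TATA box TATAAA stood in Dio2 at 30 to 25, with a share of 12.4%. None of the members' windows held TCAAGGTCA (0.387% of windows), the direct repeat DR1 of AGGTCA with 1 base between (0.0335%) or the muscle MEF2 core TATTTATA (1.56%), and Cox7a1 held none of the 8. A match of letters is a description of the window and not of binding.

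Counts on genes ranged from 15663540 to 19954971 in the 6 fat libraries, and all 10 members had counts in each of them. The fat libraries differed widely in skeletal muscle RNA. The summed level of 18 muscle genes, in counts scaled to the library total after TMM normalization within the tissue (CPM), was 28904, 34758 and 854 in null replicates 1, 2 and 3 and 22665, 1552 and 4032 in hHKDC1 OE replicates 1, 2 and 3. Acta1, skeletal actin, gave the same order with 6288, 6401 and 183 CPM against 4190, 325 and 785, and so did Ckm, muscle creatine kinase, with 1617, 1797 and 39.6 against 1519, 85.7 and 235. Null replicates 1 and 2 and hHKDC1 OE replicate 1 therefore formed a set with a higher muscle level, null replicate 3 and hHKDC1 OE replicates 2 and 3 a set with a lower one, and the gap between the sets was 2.49 on the log2 scale. Of the muscle list, 17 genes could be tested and Tnnc2 had 0 counts in every library. The summed level of 10 adipocyte genes was 35340 to 41234 CPM in null fat and 23335 to 37949 in hHKDC1 OE fat, so the labelled tissue held its defining markers. The lymphocyte markers also differed, with a summed level of 10 T cell genes of 7.69 to 20.2 CPM in null fat and 51.6 to 728 in hHKDC1 OE fat, and of 12 B cell genes of 229 to 699.5 against 742 to 1796. Ighm, the IgM heavy chain, made up nearly all of the B cell sum in null fat and overlapped between the groups, at 227 to 693 CPM against 547 to 794 (log2 fold change 0.53). The other 11 B cell genes were higher in every hHKDC1 OE library than in any null library, as 12.5% of all genes tested were, and the median log2 fold change of the 12 was 7.61. Cd79a, a part of the B cell receptor, had 0.182, 0.496 and 0.481 CPM in null fat against 247, 12.7 and 115 CPM (log2 fold change 8.30, adjusted p = 0.133). Hepatocyte genes (10) summed to 3995 to 10088 CPM in null fat and 1971 to 3046 in hHKDC1 OE fat. Every gene of the T cell and B cell lists had a count in at least 1 fat library.

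In fat, 8 of the 10 members had a higher mean in hHKDC1 OE than in null mice by edgeR's quasi-likelihood test, with a median log2 fold change of 1.05, whereas 46.1% of the 16380 genes tested were above 0 and their median was -0.05. None passed an adjusted p of 0.05, and neither did any other gene, so that 0.0% of the genes tested were called higher and 0.0% lower. At an unadjusted p under 0.05 the same test had 3 members higher (Ucp1, Tmem26 and Cidea) and 0 lower, beside 11.3% and 6.39% of all genes, and DESeq2 called 2 members higher (Ucp1 and Tmem26), beside 6.72% of all genes. With at least 10 counts required in every library, neither Ucp1 nor Tmem26 could be tested. A log2 fold change above 1 was found for 6 members and for 9.73% of all genes. The 3 groups of values that did not overlap belonged to Ucp1, Dio2 and Tmem26, beside 12.5% of all genes with hHKDC1 OE wholly above null. Ucp1, Dio2, Tmem26 and Tbx1 passed the filter on low counts only through hHKDC1 OE fat, where they are high, so counts and medians that include them are a description of the members and no support for a direction. Of the other 6 members 4 were above 0, and Cidea alone had an unadjusted p under 0.05. In bulk tissue, fewer cells of a type and less RNA per cell cannot be told apart, and the same holds for more.

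**Figure D1:**
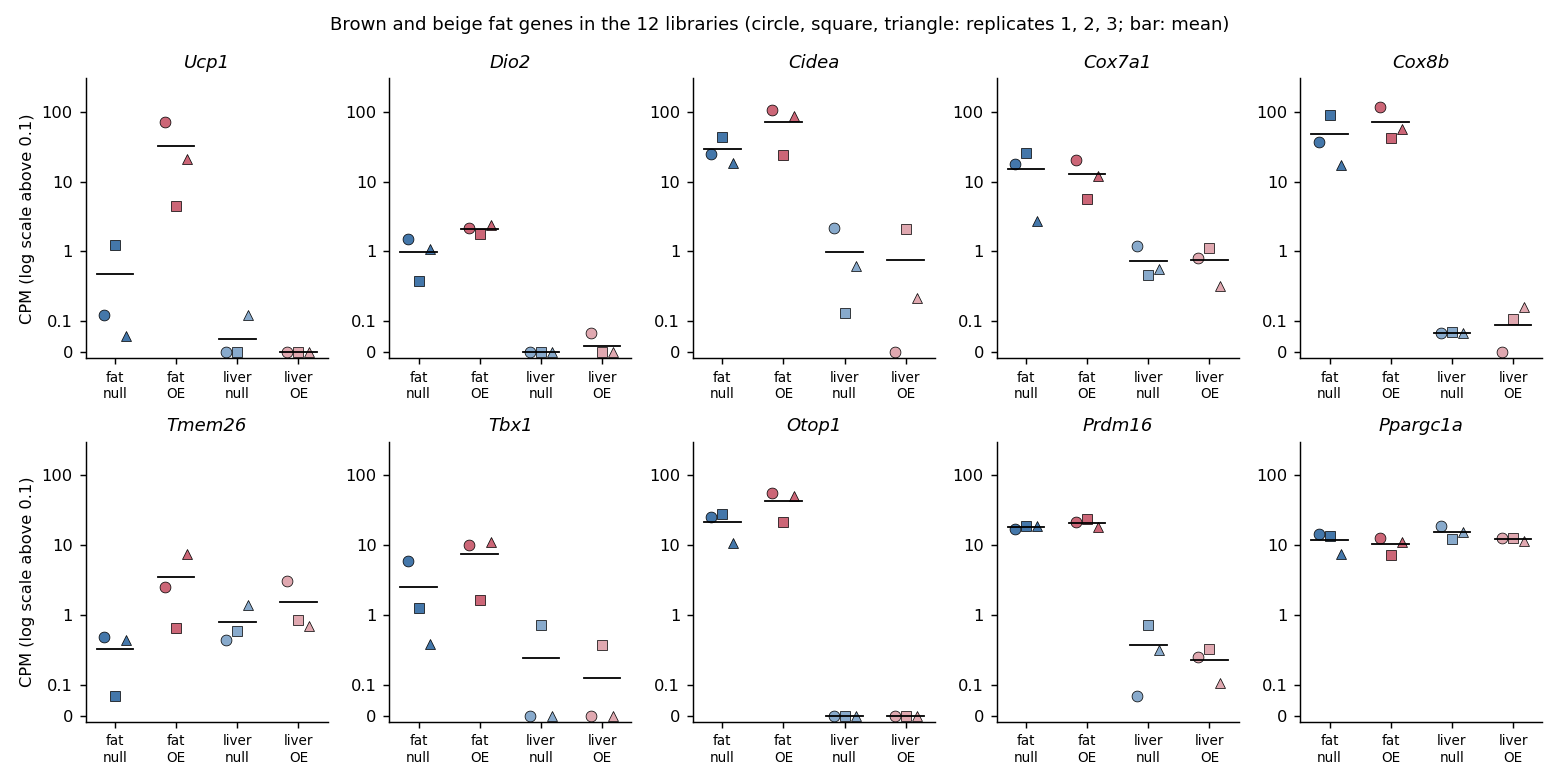
CPM of the 10 members (vertical axis, linear below 0.1 and logarithmic above) in the 4 groups of 3 libraries, with the replicates as points and the group mean as a bar. Ucp1 spans 0.0535 to 72.4 CPM over the fat libraries, Prdm16 17.0 to 23.3, and most members stand near 0 in liver, where Ppargc1a stands at 11.5 to 18.9 CPM.

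Ucp1, the uncoupling protein itself, had 2, 20 and 1 counts in the null fat libraries and 1529, 91 and 338 in the hHKDC1 OE fat libraries. Every hHKDC1 OE library was above every null library, and null replicate 2 stood above the other null libraries. The log2 fold change was 6.12 (SE 1.37), with an unadjusted p of 0.00281 and an adjusted p of 0.133, and it came to 4.74 without hHKDC1 OE replicate 1 and 8.40 without null replicate 2. Per gene length, its level was 0.210 ± 0.295 FPKM (SD, n = 3) in null fat, a mean set by replicate 2 (0.550 FPKM, against 0.0550 and 0.0248) with a range that overlapped those of Tbx1 and Dio2, and 13.9 ± 15.0 FPKM in hHKDC1 OE fat, with a range that overlapped those of Cox7a1 above it and Otop1 below it. Without hHKDC1 OE replicate 2, the lowest of its group, the adjusted p was 0.00678, and over the 6 fits that each left out 1 library it ranged from 0.00678 to 0.406.

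Dio2, the deiodinase that makes active thyroid hormone inside the cell, had 25, 6 and 20 counts in null fat against 46, 36 and 39 in hHKDC1 OE fat. The groups did not overlap, but the level was low, at 0.126 ± 0.0743 FPKM against 0.258 ± 0.0300 (SD, n = 3), the lowest mean of the 10 members in hHKDC1 OE fat, although Tmem26 ranged from 0.0904 to 0.974 FPKM there and lay below Dio2 in replicate 2. The log2 fold change was 1.09 (SE 0.55, adjusted p = 0.344 by edgeR). Cidea, a lipid droplet protein abundant in brown fat, gave 24.7, 43.7 and 18.7 CPM in null fat and 104.8, 24.4 and 86.9 in fat of hHKDC1 OE mice. Replicates 1 and 3 of hHKDC1 OE were above every null library, and replicate 2 lay among them. Its log2 fold change was 1.31 (SE 0.55, adjusted p = 0.279), and 1.71 with an adjusted p of 0.0175 without hHKDC1 OE replicate 2, in a range of 0.0175 to 0.591 over the 6 libraries left out. The gene overlaps B430212C06Rik on the opposite strand, with 77 to 195 counts in fat, and the unstranded counting cannot tell the reads of the pair apart where they overlap.

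Cox7a1 and Cox8b, the heart and skeletal muscle isoforms of cytochrome c oxidase subunits VIIa and VIII, had the highest levels per gene length in null fat, at 20.9 ± 15.6 and 97.8 ± 74.9 FPKM (SD, n = 3). The range of Cox8b did not overlap that of the next member in either group, and that of Cox7a1 overlapped Cidea's. Cox7a1 had 17.8, 25.3 and 2.73 CPM in null fat against 20.5, 5.57 and 12.2 in hHKDC1 OE fat. Its 3 lowest libraries were those with the lower muscle level, in the order of their Acta1 and Ckm, and its groups overlapped. The log2 fold change was -0.26 (SE 0.77, adjusted p = 0.869). Cox8b had 36.8, 89.9 and 17.3 CPM in null fat and 118.2, 41.7 and 56.6 in fat of hHKDC1 OE mice. Here the order left that of the muscle genes, since null replicate 1, with the second highest muscle level, was below all 3 hHKDC1 OE libraries. The log2 fold change of Cox8b was 0.59 (SE 0.62, adjusted p = 0.626), and it came to 1.37 without null replicate 2 and 0.03 without hHKDC1 OE replicate 1.

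Among the genes used as beige cell markers, Tmem26, a membrane protein, had 8, 1 and 8 counts in null fat against 53, 13 and 120 in hHKDC1 OE fat. The groups did not overlap, and in hHKDC1 OE it was replicate 3, not replicate 1 as for Ucp1, that was highest. Its log2 fold change was 3.39 (SE 1.03, adjusted p = 0.176), and 3.87 with an adjusted p of 0.0190 without hHKDC1 OE replicate 2, in a range of 0.0190 to 0.496 over the 6 libraries left out. Without hHKDC1 OE replicate 3 it came to 2.24. Tbx1, a T-box transcription factor, had 97, 20 and 7 counts against 208, 33 and 177, with null replicate 1 above hHKDC1 OE replicate 2, and a log2 fold change of 1.57 (SE 1.04, adjusted p = 0.448) that came to 3.16 without null replicate 1. Otop1, a proton channel, had 25.0, 27.7 and 10.8 CPM in null fat and 55.8, 21.6 and 49.8 in fat of hHKDC1 OE mice. Replicate 2 of hHKDC1 OE again lay within the null range, and the log2 fold change was 1.00 (SE 0.46, adjusted p = 0.305).

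Prdm16 and Ppargc1a are coregulators of the programme. Prdm16, a zinc finger protein that promotes the brown over the muscle fate, had 17.0, 18.5 and 18.7 CPM in null fat against 21.1, 23.3 and 18.1 in hHKDC1 OE fat. Its highest library was 1.37 times the lowest, the narrowest span of the 10 members, and its log2 fold change was 0.21 (SE 0.17, adjusted p = 0.543). Ppargc1a, the coactivator of mitochondrial genes, had 14.3, 13.5 and 7.49 CPM in null fat and 12.4, 7.09 and 11.0 in fat of hHKDC1 OE mice. The lowest library of each group was one with a lower muscle level, and the log2 fold change was -0.21 (SE 0.34, adjusted p = 0.756).

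**Figure D2:**
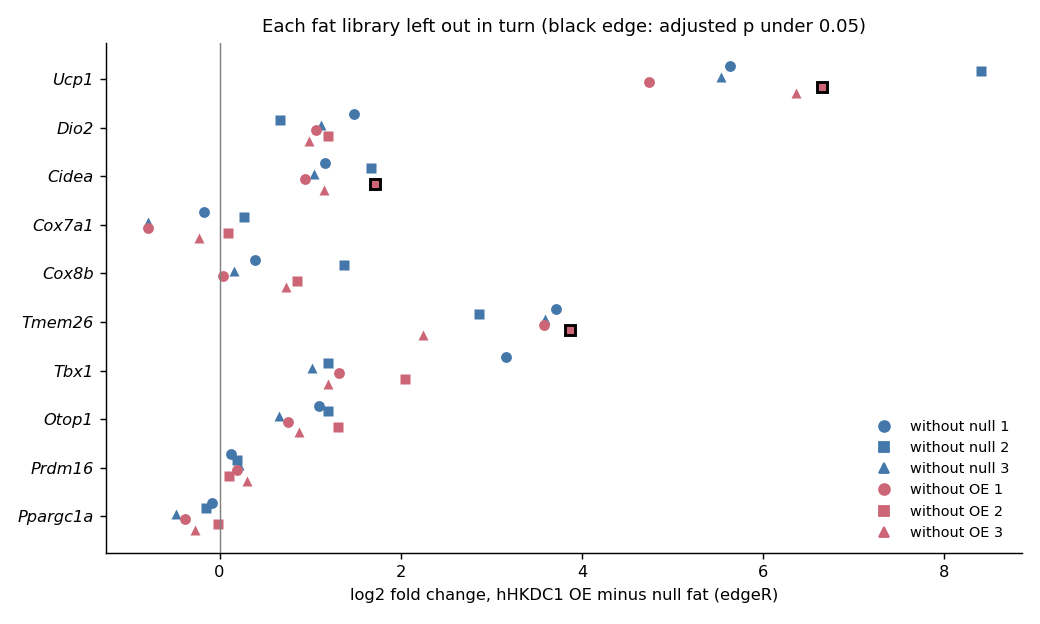
Log2 fold change of each member, hHKDC1 OE minus null fat (horizontal axis), with each of the 6 fat libraries left out in turn (points) and a black edge where edgeR's adjusted p was under 0.05. The 3 black edges, at Ucp1, Cidea and Tmem26, all belong to the fit without hHKDC1 OE replicate 2.

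The 3 members called without hHKDC1 OE replicate 2 stand beside 11.4% of the 17190 genes tested in that fit, which calls 1957 genes higher. Ucp1 and Tmem26 passed the filter of the full fit only through hHKDC1 OE fat, so nothing is read from that number. Replicate 2 had the lowest hHKDC1 OE value of Ucp1, Cidea, Cox7a1, Cox8b, Tmem26, Tbx1, Otop1, Dio2 and Ppargc1a, and the highest of Prdm16. It also had the lowest T cell level of its group (51.6 CPM against 665 and 728), the lowest muscle level and the highest adipocyte level, 37949 CPM against 23335 and 30820. The part of these levels in the members' values was not tested.

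Each member was then set against the muscle level. In the set with the higher level, Ucp1 was 106 times as high in hHKDC1 OE replicate 1 (72.4 CPM) as in the mean of null replicates 1 and 2 (0.681), and in the set with the lower level it was 236 times as high in the mean of hHKDC1 OE replicates 2 and 3 (12.6) as in null replicate 3 (0.0535, which is 1 count). Tmem26 gave ratios of 9.16 and 9.36 in the same order, Cidea 3.06 and 2.98, Dio2 2.30 and 1.94, and Otop1 2.12 and 3.32. Tbx1 gave 2.76 and 16.7, and Cox8b 1.87 and 2.83. Every hHKDC1 OE library was above every null library within both sets for those 7 of the 10 members and for 19.3% of all genes tested. Ucp1, Dio2, Tmem26 and Tbx1 are among the 7 and passed the filter only through hHKDC1 OE fat, so nothing is read from that number. The direction turned for Cox7a1, with a ratio of 0.952 in the higher set and 3.25 in the lower one, and for Ppargc1a, with 0.891 and 1.21. Prdm16 gave 1.19 and 1.11. Each set holds only 3 libraries, so these ratios have no test. Per 1000 CPM of muscle genes the groups did not overlap for Ucp1 and overlapped for every other member. On that scale the hHKDC1 OE libraries above the null range numbered 2 for Tbx1, 1 for Tmem26 and Otop1, and 0 for Dio2 and Cidea.

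**Figure D3:**
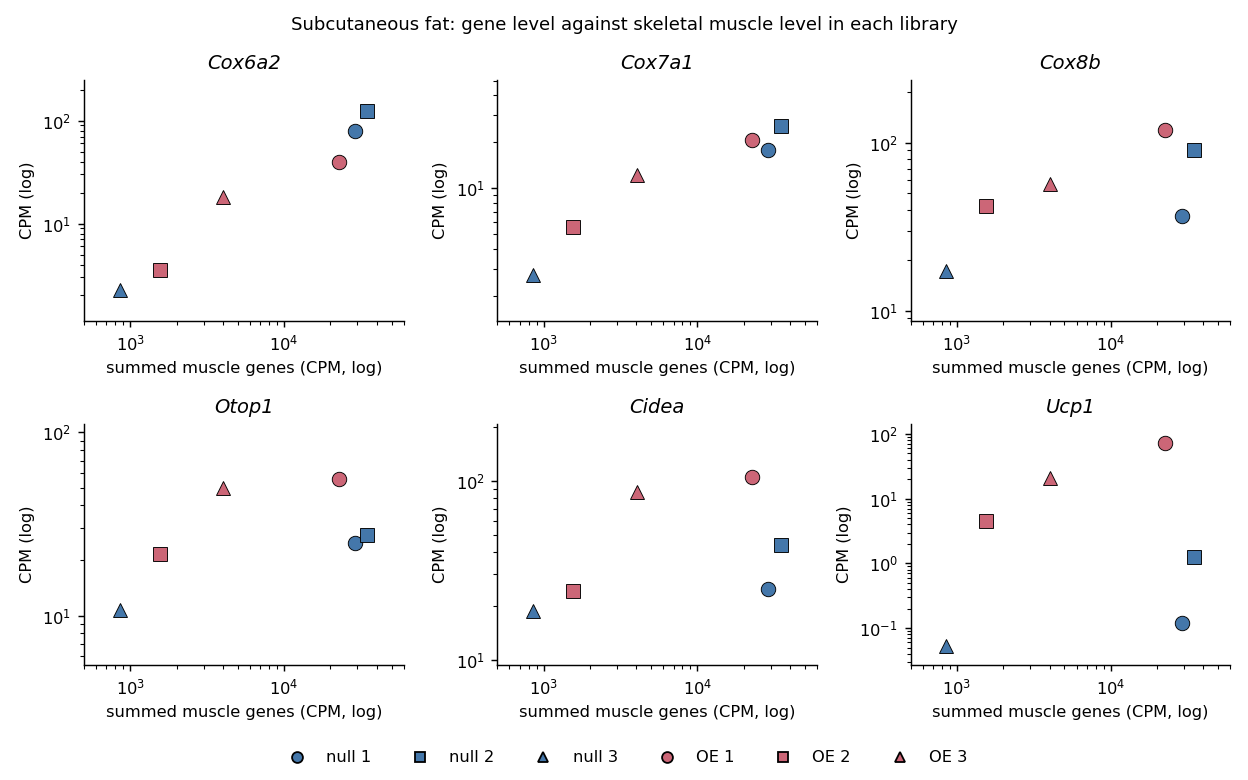
CPM of 6 genes (vertical axes) against the summed CPM of 18 skeletal muscle genes (horizontal axes), both logarithmic, with 1 point for each fat library. Cox6a2 and Cox7a1 climb with the muscle level in both groups, whereas for Ucp1 the hHKDC1 OE points (4.45 to 72.4 CPM) lie above the null points (0.0535 to 1.24 CPM) at low and at high muscle level.

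With the log2 muscle level as a covariate in the edgeR fit, 9 of the 10 members were above 0 and their median log2 fold change was 1.18, beside 47.2% of all genes and a median of -0.03. Of these, 6 had an unadjusted p under 0.05 (Ucp1, Cidea, Cox8b, Tmem26, Tbx1 and Otop1), beside 10.9% of all genes, and none passed the adjusted threshold, which again 0.0% of all genes passed. Ucp1, Dio2, Tmem26 and Tbx1 passed the filter only through hHKDC1 OE fat, so nothing is read from these counts or the median. The estimate for Cox7a1 came to 0.53 (SE 0.27, adjusted p = 0.360) and that for Cox8b to 1.00 (SE 0.31, adjusted p = 0.200), both with a smaller SE than without the muscle level. Otop1 gave 1.27 (SE 0.25, unadjusted p = 0.00179, adjusted p = 0.156), Ucp1 7.22 (SE 0.78, adjusted p = 0.0999) and Tbx1 2.42 (SE 0.85, adjusted p = 0.239). Dio2, Tmem26 and Prdm16 hardly moved, at 1.08, 3.37 and 0.19, and Ppargc1a gave -0.03.

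**Figure D4:**
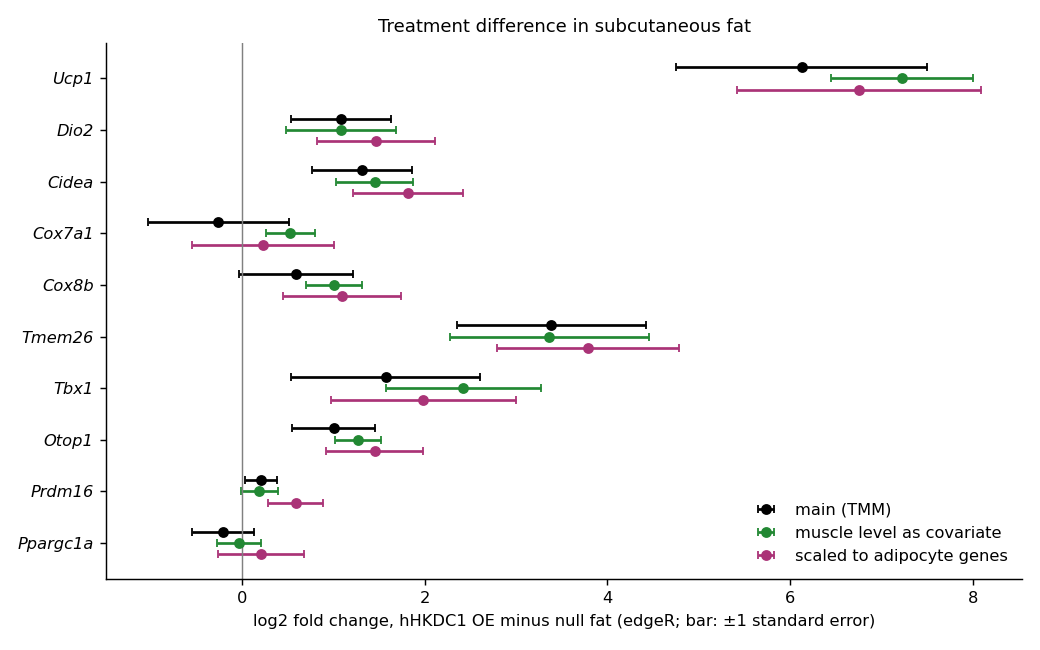
Log2 fold change of each member, hHKDC1 OE minus null fat (points), with 1 standard error to each side (bars), from edgeR with TMM scaling, with the muscle level as a covariate and with scaling to adipocyte genes. The bars of Cox7a1, Cox8b and Otop1 are shortest with the muscle covariate, and Cox7a1 lies at -0.26 in the first fit and at 0.53 and 0.23 in the others.

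How far Cox7a1 and Cox8b followed muscle was read against Cox6a2, the muscle isoform of subunit VIa, which had 79.5, 124.9 and 2.25 CPM in null fat against 39.9, 3.52 and 18.1 in hHKDC1 OE fat. Its highest library was 55.6 times its lowest, but per 1000 CPM of muscle genes the span was only 2.54 times (1.76 to 4.48). Cox7a1 per 1000 CPM of muscle genes was 0.616, 0.728 and 3.19 in null fat and 0.905, 3.59 and 3.02 in fat of hHKDC1 OE mice. The 3 libraries with a higher muscle level had the lowest values in both groups, so Cox7a1 did not scale with muscle RNA as closely as Cox6a2 did, and its span was 5.83 times. Cox8b per 1000 CPM of muscle genes was 1.27, 2.59 and 20.3 in null fat against 5.22, 26.9 and 14.0 in hHKDC1 OE fat, a span of 21.1 times, wider than its span of 6.82 times in CPM.

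Each muscle isoform has a partner that most tissues use, and the share of the muscle isoform in the FPKM of a pair compares them within a library. Cox7a1 made up 25.4%, 30.6% and 4.22% of Cox7a1 plus Cox7a2 in null fat and 23.7%, 8.86% and 13.9% in fat of hHKDC1 OE mice. The share was above 20% in the libraries with a higher muscle level, whichever the vector. Cox8b made up 14.2%, 23.5% and 6.42% of Cox8b plus Cox8a in null fat against 27.5%, 12.4% and 14.4% in hHKDC1 OE fat, so that hHKDC1 OE replicate 1 was above all others. Cox6a2 made up 19.3%, 22.5% and 0.583% of Cox6a2 plus Cox6a1 in null fat and 8.11%, 0.858% and 3.52% in fat of hHKDC1 OE mice. None of the 3 shares separated the groups, with two-sided exact permutation p values of 0.7, 0.6 and 0.4, in a design where 3 libraries against 3 cannot go below 0.1. The partners Cox7a2, Cox8a and Cox6a1 had log2 fold changes of 0.21, 0.29 and 0.24.

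**Figure D5:**
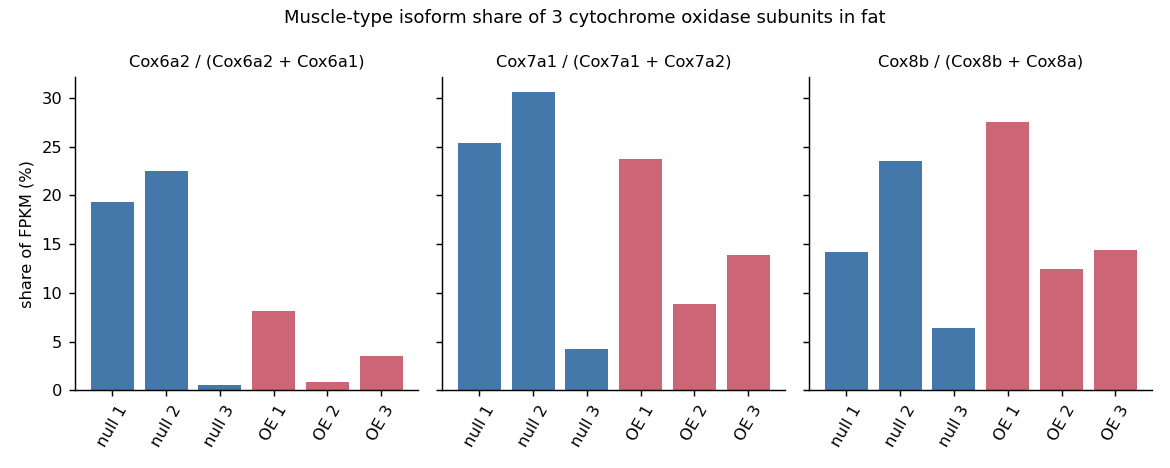
Share of the muscle isoform in the summed FPKM of 3 isoform pairs of cytochrome c oxidase (vertical axis, percent), with 1 bar for each fat library. The bars of Cox6a2 and Cox7a1 are highest where the muscle level is higher, while for Cox8b the highest is hHKDC1 OE replicate 1 at 27.5%.

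The members were also set against adipocyte RNA. Per 1000 CPM of the 10 adipocyte genes, Prdm16 was 0.480, 0.469 and 0.454 in null fat against 0.905, 0.614 and 0.586 in hHKDC1 OE fat, and the groups did not overlap (two-sided exact permutation p = 0.1, the smallest the design allows), as for 18.0% of all genes with hHKDC1 OE above null on this ratio. The summed adipocyte level itself was 35340 to 41234 CPM in null fat against 23335 to 37949 CPM, and in plain CPM the groups overlapped for Prdm16 (17.0 to 18.7 against 18.1 to 23.3). For Ucp1, Dio2 and Tmem26 the groups did not overlap on this ratio either, nor in plain CPM. Otop1 per 1000 CPM of adipocyte genes was 0.709, 0.701 and 0.261 against 2.39, 0.569 and 1.62, with hHKDC1 OE replicate 2 below 2 of the null libraries. With the counts scaled to the adipocyte genes, edgeR called Ucp1 higher at a log2 fold change of 6.75 (adjusted p = 0.0361), and all 10 members were above 0. Nothing is read from that number, since Ucp1, Dio2, Tmem26 and Tbx1 passed the filter only through hHKDC1 OE fat. That scaling moved the median of all genes to 0.34 and put 74.8% of them above 0, with 2.96% called higher.

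The rest of the thermogenic programme was read from a list of 26 other genes, of which 23 could be tested. Of these, 7 were above 0 and 16 below, with a median of -0.09, and none passed the adjusted threshold. At an unadjusted p under 0.05, 2 of the 23 were higher, beside 11.3% of all genes, and 1 was lower, beside 6.39%. The higher ones were Epsti1 and Tnfrsf9, with log2 fold changes of 5.18 (adjusted p = 0.133) and 3.32 (adjusted p = 0.153). Tnfrsf9 is also a receptor of activated T cells and Epsti1 is also induced by interferon, and 9 of the 10 T cell markers were higher in every hHKDC1 OE library than in any null library, beside 12.5% of all genes. Their part in these 2 differences was not tested. The lower one was Nrg4, a secreted factor of brown fat, at -0.57 (unadjusted p = 0.0252, adjusted p = 0.224), with every hHKDC1 OE library below every null library, beside 10.2% of all genes. Elovl3, a fatty acid elongase that rises in cold-exposed brown fat, gave -1.28 (SE 0.72, adjusted p = 0.384). Null fat minus null liver was -5.69 for it on the log2 scale (adjusted p = 0.000157), and all 10 hepatocyte markers were below 0 in the treatment comparison, with a median of -1.37. Their part in the value of Elovl3 was not tested. Slc36a2, an amino acid transporter, gave 0.10, P2rx5, a purine receptor, 0.29, Kcnk3, a potassium channel, 0.16, and Ebf2, a factor of the brown lineage, -0.06. The sympathetic markers Th, Dbh, Slc6a2 and Npy summed to at most 1.22 CPM in any fat library and could not be tested.

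Heat can also be made without Ucp1, by cycling creatine or calcium. Of 8 genes for these cycles, 7 were below 0, with a median of -0.46, whereas 46.1% of all genes tested were above 0. With the muscle level as a covariate the median was -0.39 and 2 of the 8 were above 0. Slc6a8, the creatine transporter, gave -1.09 (SE 0.22, unadjusted p = 0.00156, adjusted p = 0.133), with every hHKDC1 OE library below every null library, beside 10.2% of all genes. Atp2a2, the calcium pump SERCA2, gave -0.63 (unadjusted p = 0.0265, adjusted p = 0.227), and Ckb, the brain creatine kinase, -0.07. Slc6a8 and Atp2a2 were the 2 of the 8 that were lower at an unadjusted p under 0.05, beside 6.39% of all genes. The mitochondrial creatine kinase Ckmt2 gave -1.66 and came to 0.27 with the muscle level as a covariate. Among the paralogs of Ucp1, Ucp2, which immune cells also express, gave 1.06 (unadjusted p = 0.0138, adjusted p = 0.179), and Ucp3, the muscle form, -0.06. All 8 genes of a white adipocyte list, which includes Lep (leptin), Retn (resistin) and Agt (angiotensinogen), were below 0, with a median of -0.41, and Agt (-1.41) and Nrip1 (-0.85), a repressor of Ucp1, had an unadjusted p under 0.05, beside 6.39% of all genes. Agt is also a liver gene, with -4.46 for null fat minus null liver on the log2 scale (adjusted p = 0.000188), and the part of the hepatocyte RNA in its value was not tested. The adipocyte list, 8 of 10 below 0 with a median of -0.29, lay in the same direction.

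The liver libraries give the members' level in another tissue. Only 4 members passed the filter on low counts there. Otop1 had 0 counts in all 6 liver libraries, Dio2 had 1 count in all, Ucp1 2, and Cox8b 0 to 3 in each. Against null liver, null fat was higher by 3.94 for Cidea (adjusted p = 0.00181), 3.44 for Cox7a1 (adjusted p = 0.00679), 8.53 for Cox8b (adjusted p = 0.000104) and 4.70 for Prdm16 (adjusted p = 0.000138) on the log2 scale. Otop1 was higher by a bound of about 319-fold, from counts per library total without TMM and a floor of 3 counts over the liver group. On that scale Cidea was 28.0-fold and Cox8b 715-fold higher, against 15.4-fold and 369-fold with TMM. The bound therefore does not compare with the log2 values above. Without 1 library the log2 value with TMM came to 5.30 for Cidea (null liver replicate 1), 5.62 for Prdm16 (null liver replicate 2) and 7.73 for Cox8b (null fat replicate 2). All 5 genes passed the filter on low counts only through fat, where they are high, so nothing is read from their number, and 33.8% of the 15259 genes tested were called higher in fat. Ppargc1a was the exception and fell by 1.34 from liver to fat (adjusted p = 0.00409), beside 30.5% of genes. Scaled by library size alone, the difference of Ppargc1a was -0.46 (adjusted p = 0.154). Those of Cidea, Cox7a1, Cox8b and Prdm16 were then 4.83, 4.30, 9.34 and 5.58. For Tbx1 the difference was 2.45 (adjusted p = 0.160), resting on 11 counts in null liver replicate 2 and 0 in the others, and without that library, where the fitted value depends on the prior count, the adjusted p was 0.0464, in a range of 0.0464 to 0.635 over the 6 libraries left out. Ucp1 had 2, 20 and 1 counts in fat of null mice against 0, 0 and 2 in their liver, so its excess in null fat rests on null replicate 2. Tmem26 had 8, 1 and 8 counts in fat of null mice against 7, 9 and 22 in their liver, with ranges that overlapped. For Cox7a1 and Cox8b, adipocyte and muscle RNA in the same fat libraries cannot be told apart in this comparison.

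In liver, where the vector is active, none of the 4 members tested passed the adjusted threshold between hHKDC1 OE and null mice. Ppargc1a had 18.9, 12.3 and 15.5 CPM in null liver and 12.7, 12.5 and 11.5 in hHKDC1 OE liver, with a log2 fold change of -0.35 (SE 0.19, adjusted p = 0.788). Cidea ranged from 2 to 35 counts in null liver and from 0 to 39 in hHKDC1 OE liver (-0.33, SE 1.22, adjusted p = 0.982). Cox7a1 gave 0.03 (SE 0.64) and Tmem26 0.92 (SE 0.70), the latter with 49 counts in hHKDC1 OE replicate 1 and 7 to 22 in the other libraries. Leaving out each liver library turned the sign for 3 of these, with -0.042 to 1.56 for Tmem26, -3.04 to 1.02 for Cidea and -0.39 to 0.55 for Cox7a1. edgeR called 0 genes higher and 0 lower of 13351 in liver, or 0.0%, with 3.89% higher and 3.05% lower at an unadjusted p under 0.05. DESeq2 called 42 and 48, and the fit with the replicate number as a block 13 and 4, with no member among the genes called by either. With that block, Ppargc1a came to -0.33, Cidea to -0.83, Tmem26 to 0.75 and Cox7a1 to -0.0065. For the difference of the treatment effect between fat and liver, the smallest adjusted p among the members was 0.448, for Tmem26 at 2.53 (SE 1.32) on the log2 scale, followed by Ucp1 at 0.458. No member and no other gene of 17070 passed in that test, with 9.0% higher and 3.67% lower at an unadjusted p under 0.05 and DESeq2 calling 394 and 99.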

How the data were processed

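RNA from subcutaneous fat and liver of null and hHKDC1 OE mice was sequenced as unstranded paired-end libraries. The authors mapped reads with STAR (2.5 in the submitters' processing notes) and counted fragments per gene with HTSeq 0.6.1, and the deposited counts are whole numbers without normalization. The authors also deposited FPKM values, which scale those counts by gene length and depth, and these were used only to compare levels between genes and isoforms. The methods name the human genome, whereas the identifiers are mouse Ensembl genes with GRCm38 positions. Deposited tables of the authors' comparisons hold log2 fold changes and p-values per gene and were not used, nor were their group means.

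Samples were grouped by title. Counts ranged from 15496019 to 19954971 per library, and intervals and floors (3 counts) cover counting error only. The labels do not say more than that replicates are separate samples, so p-values measure the spread between them. From the counts, each tissue was fitted with edgeR 4.0.16 (quasi-likelihood test, TMM, filterByExpr, Benjamini-Hochberg over all tested genes, threshold 0.05) in R 4.3.3. A fold change is on the log2 scale, hHKDC1 OE minus null. The SE of an edgeR value was calculated back from its test, as the absolute log2 fold change divided by the square root of the F statistic. The tissue difference and the interaction were fitted in the same way over the 6 null and over all 12 libraries. CPM are counts scaled to the library's total over the genes passing the filter times its TMM factor, set within each tissue. The muscle level is the summed CPM of 18 skeletal muscle genes, and the covariate its log2. Exact permutation tests were two-sided. The fits were tested on simulated data.

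The members, the gene lists and the tests were chosen with earlier results of these data known. The genes named are the 10 members, Acta1 and Ckm, genes of the lists where a list is described, and, for Ucp1, Cox7a1 and Cox8b, the 5 genes with the highest Pearson r of log2(CPM + 1) over the fat libraries. Same-numbered liver libraries deviated together (r of 0.116 to 0.231 over 3 pairs), so blocked values are given beside those of the unblocked liver fit. Same-numbered fat libraries (-0.143 to 0.0394) did not. Same-numbered null liver and null fat libraries gave r of 0.045 to 0.278 over 3 pairs, and blocked values of the tissue difference are given below. Alternatives were DESeq2 1.42.0, upper-quartile scaling, library size alone, scaling to adipocyte genes, no filter, at least 10 counts in every library, the replicate block, 12 libraries in 1 fit, limma 3.58.1 on log2(FPKM + 1) and log2(FPKM + 0.1), muscle covariates and each library left out.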

Additional observations from a re-analysis of the deposited data

How the results depend on the processing

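Of 470 values of single members under the alternatives, 430 kept their direction and side of the threshold. In fat, genes called higher and lower numbered 0 and 0, and became 1101 and 200 with DESeq2, 723 and 80 with no filter on low counts, 770 and 106 with the 12 libraries in 1 fit, 485 and 16 scaled to adipocyte genes, 1 and 1 with Acta1 plus Ckm as the covariate (chosen after seeing the data) and 1 higher with limma on log2(FPKM + 1). Leaving out each library gave 0 to 1957 higher and 0 to 1294 lower, both highest without hHKDC1 OE replicate 2. Ucp1 was called with DESeq2 (adjusted p = 0.000966), with no filter (0.0125), with the 12 libraries in 1 fit (0.0245) and scaled to adipocyte genes (0.0361), in a range of 0.000966 to 0.298, and Tmem26 with DESeq2 (0.0121). The sign of Cox7a1 turned, to 0.0012 with limma on log2(FPKM + 0.1), 0.53 with either muscle covariate, 0.23 scaled to adipocyte genes, and -0.79 to 0.27 leaving out each library. Ppargc1a came to 0.21 scaled to adipocyte genes. With limma on log2(FPKM + 1), Ucp1 came to 3.05, Tbx1 to 0.68, Tmem26 to 0.44 and Dio2 to 0.16, their lowest values under these alternatives. In liver, genes higher and lower numbered 42 and 48 with DESeq2, 2 higher with library size alone, 180 and 147 with no filter, and 0 to 77 and 0 to 69 leaving out each library, highest without hHKDC1 OE replicate 2, while Cidea ran from -3.04 to 1.02, Cox7a1 from -0.39 to 0.55 and Tmem26 from -0.042 to 1.56. Null fat against null liver gave 9012 higher and 2286 lower with library size alone. The interaction gave 394 and 99 with DESeq2, 426 and 53 with no filter, and 0 to 700 and 0 to 511 leaving out each library, highest without hHKDC1 OE replicate 2 of fat.

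With the replicate number as a block, fat had 159 genes higher and 9 lower and Cox7a1 came to 0.058. Not every fat library correlated best with its own number. The block gave 13 and 4 in liver, where Cox7a1 came to -0.0065, and 5 and 1 in the interaction, where Cox7a1 came to 0.14. It changed the side of the threshold for none of the members tested, and null fat against null liver gave 5176 genes higher and 4762 lower with it, beside 5163 and 4647. In that comparison the blocked log2 values were 4.01 for Cidea, 3.14 for Cox7a1, 8.47 for Cox8b, 4.78 for Prdm16, 2.46 for Tbx1 and -1.36 for Ppargc1a.

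The interaction by edgeR was -1.11 for Dio2, 2.52 for Tbx1, -0.19 for Cox7a1, 0.15 for Cox8b and 0.22 for Ppargc1a. That of Dio2 turned to 0.27 with DESeq2. The lowest and highest interaction values over the libraries left out are -0.88 and 0.21 for Cox7a1, -3.15 and 7.27 for Tbx1, -1.67 and 1.14 for Dio2, -0.55 and 0.81 for Cox8b and -0.19 and 0.37 for Ppargc1a. The cause was not tested for these. Correlations of the members with the muscle level were not run, because the libraries fell into 2 sets of muscle level. Under 10 counts in a library, as for Dio2 and Tmem26 in null fat, counting error is large, and with at least 10 counts in every library Ucp1, Dio2, Tmem26 and Tbx1 could not be tested.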

Other observations

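The genes whose levels ran most like those of a member over the 6 fat libraries were looked up among 14951 genes with a mean of at least 1 CPM, as a description with no test. For Ucp1 the 5 most alike were Chtop, Rnf220, E2f2, St6galnac4 and Nop56, with r of 0.996 to 0.997, and 316 genes had an r above 0.95. E2f2, a cell cycle transcription factor, had 2.86, 3.84 and 3.00 CPM in null fat and 14.2, 5.13 and 8.30 in fat of hHKDC1 OE mice, in the order of Ucp1 within hHKDC1 OE. For Cox7a1 they were Naa20, Herc3, Apoo, Bckdk and Cops4, with r of 0.978 to 0.987 and 67 genes above 0.95, and Apoo and Bckdk encode mitochondrial proteins. For Cox8b they were Rxrg, Exoc8, Tsfm, Gm6457 and Fam185a, with r of 0.977 to 0.987 and 12 genes above 0.95. Rxrg, a retinoid receptor, had 25.5, 30.5 and 20.2 CPM in null fat against 31.6, 24.4 and 26.6 in hHKDC1 OE fat. The 6 libraries share their muscle, lymphocyte and adipocyte levels across all these genes.

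The muscle RNA in the fat libraries was not of 1 kind. The summed level of 8 slow and cardiac muscle genes was 188.4, 277.8 and 3.32 CPM in null replicates 1, 2 and 3 and 3.03, 0.489 and 2.15 CPM in the hHKDC1 OE replicates. Null replicate 3 was above every hHKDC1 OE library but far below the other null libraries, and hHKDC1 OE replicate 1 had 3.03 CPM beside 22665 CPM of skeletal muscle genes. Myl2, the slow myosin light chain, gave a log2 fold change of -9.42 (unadjusted p = 0.00112, adjusted p = 0.133 by edgeR), and Tnnc1, the slow troponin C, -5.13 (adjusted p = 0.133). With the muscle level as a covariate these came to -8.14 and -4.10 (adjusted p = 0.0999 and 0.0918). A single muscle level therefore does not describe every muscle gene of these libraries, and which fibres express Cox7a1 and Cox8b here was not tested.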
